A study of Mus musculus with 6 samples.

Results

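H3K4me3 ChIP-Seq peak lists of cells given the Group A compounds, cyproheptadine and loxapine, were compared with those of cells given the Group B compounds, the diacylglycerol kinase inhibitor II (DKI) and meclizine. These are 4 of the 6 lists of the series. Pizotifen, which the study also places in Group A, was not analysed here. The comparison used every promoter and every merged region that had a peak in all 4 lists, and every one that had a peak in both lists of one group and in neither list of the other. A promoter or region was called higher in a group when both of its lists ranked it above both lists of the other group. Of 21911 protein-coding genes, 13088 had a promoter peak in at least 1 of the 4 lists and 11924 had one in all 4. Merging overlapping peaks gave 51392 regions, of which 25468 had a peak in all 4 lists.

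The cells were STHdh cells, conditionally immortalized striatal progenitors of C57BL/6 mice that are used as a culture model of Huntington's disease. All 4 compound lists came from the mutant line STHdhQ111, which carries a polyglutamine-expanded huntingtin gene, held for 24 h in serum-free medium with 10 uM of a compound. The remaining lists came from the same mutant line with vehicle (Q111SST) and from the wild type line STHdhQ7, which the labels write STHdh7, with vehicle (Q7SST), both without serum for 24 h, and served only as references. Each condition was deposited as 1 list, so there was no spread between replicates, no test was made and each difference describes these lists only. The compound lists thus come from 1 mutant line in culture and not from striatal tissue.

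H3K4me3 is trimethylation of lysine 4 on histone H3. It is laid down by the SET1 and MLL complexes around the start sites of active and poised genes, most strongly at promoters rich in CpG, and its level broadly follows promoter activity. Weak peaks away from annotated starts can mark enhancers or unannotated promoters. Cyproheptadine and meclizine are antihistamines, loxapine is an antipsychotic that blocks dopamine and serotonin receptors, and DKI blocks the kinases that convert diacylglycerol to phosphatidic acid. The study formed the groups from metabolite profiles of treated cells and saw them again in proteomic data, while it found their RNA profiles nearly alike. For H3K4me3 it reported that few peaks differed between treated cells and the mutant vehicle control. The comparison here asks whether promoter marking differed between the groups.

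The lists held 33721 (cyproheptadine), 45564 (loxapine), 30758 (DKI) and 38577 (meclizine) peaks, against 40406 in Q111SST and 38392 in Q7SST. A peak's strength was the percentile of its score among all peaks of its own list, and a promoter took the percentile of its strongest peak within 1 kb of any annotated start. The separation of a promoter is the lowest percentile of the higher group minus the highest percentile of the lower group. A longer list adds weak peaks at the bottom and so lifts the percentile of every shared promoter, so the ranks were also taken among the features common to all 4 lists (the shared rank, in percent). Promoters of neural progenitor genes served as a check of the cells. Vim, Sox2, Sox9, Fabp7, Notch1 and Hes1, 6 of 8 such genes, were marked in all 4 lists, and 10 genes of other tissues and 4 of microglia were marked in none. Of 8 genes of mature striatal neurons, Foxp1 was marked in all 4 lists and Drd1, Drd2, Bcl11b and Adora2a in none. Astrocyte genes were also marked, Gfap and Slc1a3 in all 4 lists, as was Kdr of endothelium.

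Sequences are shown for promoters and distal regions that separated the groups, with their CpG content, as single examples. The promoters printed do not stand for the group medians, since the median CpG ratio of promoters was higher toward Group A, 0.840 against 0.744. Each promoter is the 250 bases upstream of a RefSeq start on GRCm38.p6, written in the direction of transcription, and each distal region is its central 300 bases on the plus strand. Capitals mark CpG dinucleotides. Sh2d1b1 (higher in Group A, chr1:170277068-170277317, plus strand) held 1 CpG. Dusp5 (higher in Group A, chr19:53528895-53529144, plus strand) held 21. Nod2 (higher in Group B, chr8:88647097-88647346, plus strand) held 7, as did Cyp27a1 (higher in Group B, chr1:74713285-74713534, plus strand). Insig1 (higher in Group B, chr5:28071162-28071411, plus strand) held 34. The region in an intron of Grik4 (higher in Group A, chr9:42730705-42731004) held 4, as did the region near Treml1 (higher in Group A, chr17:48355949-48356248). The region nearest Nt5e (higher in Group B, chr9:88241663-88241962) held 9 and the region near Foxd3 (higher in Group B, chr4:99660400-99660699) held 14.
Sh2d1b1: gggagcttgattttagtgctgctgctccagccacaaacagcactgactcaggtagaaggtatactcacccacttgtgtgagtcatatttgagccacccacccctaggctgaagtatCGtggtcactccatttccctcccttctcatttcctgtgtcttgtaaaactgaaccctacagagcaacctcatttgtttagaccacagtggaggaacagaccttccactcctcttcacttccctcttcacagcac
Dusp5: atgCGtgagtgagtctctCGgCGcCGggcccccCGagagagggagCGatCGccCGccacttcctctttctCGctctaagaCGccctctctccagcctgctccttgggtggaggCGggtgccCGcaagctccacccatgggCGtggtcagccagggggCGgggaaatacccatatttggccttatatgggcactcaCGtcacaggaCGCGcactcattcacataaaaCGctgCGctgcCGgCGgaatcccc
Nod2: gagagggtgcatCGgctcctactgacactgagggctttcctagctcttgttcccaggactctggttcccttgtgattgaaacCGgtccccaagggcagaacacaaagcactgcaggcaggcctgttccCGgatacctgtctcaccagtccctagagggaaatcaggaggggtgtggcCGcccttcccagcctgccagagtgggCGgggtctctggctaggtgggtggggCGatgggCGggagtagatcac
Cyp27a1: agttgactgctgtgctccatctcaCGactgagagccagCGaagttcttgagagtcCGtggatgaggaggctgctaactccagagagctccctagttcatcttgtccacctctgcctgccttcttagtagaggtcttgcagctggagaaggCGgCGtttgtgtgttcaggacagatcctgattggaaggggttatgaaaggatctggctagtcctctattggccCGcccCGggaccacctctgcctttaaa
Insig1: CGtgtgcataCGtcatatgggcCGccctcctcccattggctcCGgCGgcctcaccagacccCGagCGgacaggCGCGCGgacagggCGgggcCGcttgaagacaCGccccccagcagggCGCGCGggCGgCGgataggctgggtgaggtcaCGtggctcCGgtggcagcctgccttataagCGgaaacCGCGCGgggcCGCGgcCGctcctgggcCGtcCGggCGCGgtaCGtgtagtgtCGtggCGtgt
Grik4 intron: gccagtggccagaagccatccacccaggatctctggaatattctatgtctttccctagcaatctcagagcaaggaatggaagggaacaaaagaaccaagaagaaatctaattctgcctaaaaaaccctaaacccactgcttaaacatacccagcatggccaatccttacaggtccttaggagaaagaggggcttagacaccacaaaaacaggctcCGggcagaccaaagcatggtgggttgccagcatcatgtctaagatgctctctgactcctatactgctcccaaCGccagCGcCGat
Treml1 region: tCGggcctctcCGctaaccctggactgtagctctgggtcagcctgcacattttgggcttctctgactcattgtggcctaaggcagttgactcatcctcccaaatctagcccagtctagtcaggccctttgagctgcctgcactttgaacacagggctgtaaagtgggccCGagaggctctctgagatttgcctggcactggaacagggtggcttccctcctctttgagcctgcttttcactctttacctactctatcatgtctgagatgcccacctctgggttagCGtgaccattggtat
Nt5e region: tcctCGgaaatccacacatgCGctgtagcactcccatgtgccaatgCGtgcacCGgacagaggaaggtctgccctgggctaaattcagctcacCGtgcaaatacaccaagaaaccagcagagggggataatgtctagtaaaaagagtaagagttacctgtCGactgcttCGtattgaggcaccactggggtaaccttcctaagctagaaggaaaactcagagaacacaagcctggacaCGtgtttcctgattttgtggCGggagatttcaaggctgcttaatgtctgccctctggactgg
Foxd3 region: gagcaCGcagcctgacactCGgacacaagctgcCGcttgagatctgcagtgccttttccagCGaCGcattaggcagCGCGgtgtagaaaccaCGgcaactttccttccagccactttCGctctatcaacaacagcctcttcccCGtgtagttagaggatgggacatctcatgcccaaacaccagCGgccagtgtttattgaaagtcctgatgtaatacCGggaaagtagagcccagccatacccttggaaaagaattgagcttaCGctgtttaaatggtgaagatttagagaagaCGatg

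By percentile, 2735 promoters (22.9%) were higher in both Group A lists and 1232 (10.3%) in both Group B lists. The excess toward Group A did not hold on the shared rank, where 2362 (19.8%) were higher in Group A and 2478 (20.8%) in Group B. Merged regions gave the same picture, with 6131 (24.1%) against 2463 (9.67%) by percentile and 5113 (20.1%) against 5311 (20.9%) by shared rank. The median percentile of promoters in all 4 lists was 80.0 and 84.3 in the Group A lists and 76.8 and 81.9 in the Group B lists, in the order given above, so loxapine, the longest list, was highest and DKI, the shortest, was lowest. In all, 1940 promoters were higher in Group A and 1107 higher in Group B on both scales, and 0 changed direction between them. With 4 lists in random order, many features would also meet the rule in each direction. The counts alone therefore do not show a difference between the groups, which was not tested.

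**Figure D1:**
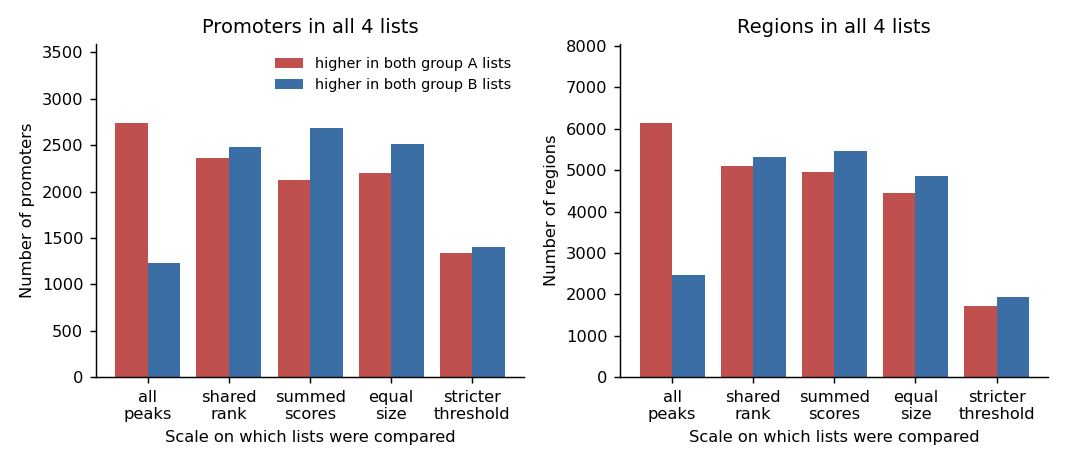
Number of promoters (left) and merged regions (right) in all 4 lists that were higher in both Group A lists (red) or both Group B lists (blue), on 5 scales. Group A exceeded Group B only by percentile among all peaks (2735 against 1232 promoters), and on the other 4 scales Group B was ahead, from 2478 against 2362 promoters by shared rank to 2681 against 2123 by summed scores.

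Most separations were small. The median separation by percentile was 2.81 points among promoters higher in Group A and 2.08 among those higher in Group B. A separation of 10 points or more was reached by 228 promoters in Group A and 61 in Group B, and of 20 points or more by 20 and 11. On the shared rank, 10 points or more were reached by 576 and 488. Just inside the limit lay Pdcl, higher in Group A by 0.000966 points, and Nav3, higher in Group B by 0.00125. Just outside lay Sh3glb1 at -0.00145 and Amn1 at -0.00143. The strongest and the weakest promoters separated at like rates. Below 25 on the mean shared rank 18.3% were higher in Group A and 19.5% in Group B, and above 75 these were 19.7% and 21.2%.

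The 12 promoters with the widest separation toward Group A belonged to genes of varied known roles. Gtsf1, a germline gene of the piRNA pathway, ranked at percentile 80.0 with cyproheptadine and 88.8 with loxapine, against 47.0 with DKI and 40.1 with meclizine. Q111SST stood at 47.2, next to DKI. Mtcl1, which encodes a microtubule crosslinking protein, was at 61.0 and 63.9 in Group A and at 21.8 and 27.6 in Group B. Its level in Q111SST was 53.9, between the groups. The DKI peak of Mtcl1 did not overlap those of the other 3 compounds. Sh2d1b1, an adaptor of natural killer cell receptors, stood at 64.5 and 77.9 in Group A and at 28.1 and 39.1 in Group B. Its upstream sequence, shown above, held the motif TGANTCA of AP-1 and 1 CpG.

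Hdac9, a class II histone deacetylase, was at 59.3 with cyproheptadine and 60.8 with loxapine, against 18.5 with DKI and 35.9 with meclizine. Nrg2, a ligand of ErbB receptors, was at 61.7 and 58.1 against 33.5 and 34.8. Both Q111SST values, 54.7 for Hdac9 and 60.2 for Nrg2, were nearer to Group A. Col10a1, a collagen of hypertrophic cartilage, separated by 22.8 points, and its Group A lists were far apart at 33.5 and 81.1. The Group B lists held it at 7.80 and 10.8. Irgc1 separated by 35.9 points, with both Group B lists near the bottom at 5.96 and 5.91, and Zdhhc23, a palmitoyltransferase, by 23.6. On the shared rank these weak promoters were closer, with separations of 6.51 for Irgc1, 3.63 for Col10a1 and 3.23 for Zdhhc23.

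A further 4 of the 12 depended on the promoter window. Aamdc had the widest separation, 42.8 points, with 85.7 and 91.3 in Group A against 18.5 and 42.9 in Group B. Msh5, a meiotic mismatch repair homologue, separated by 24.0 points, the metalloproteinase gene Pappa by 29.2 and Rsph14, a radial spoke gene of motile cilia, by 26.1. When the window was widened to 5 kb, stronger peaks nearby entered in at least 1 Group B list, and at Rsph14 in all 4 lists, and the separations became -7.86 for Aamdc, -2.16 for Msh5, -8.44 for Pappa and -12.6 for Rsph14, which are no longer separations.

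The 12 promoters widest toward Group B were likewise of genes with varied roles. Nod2, a cytosolic sensor of bacterial muramyl dipeptide, was at 33.5 with cyproheptadine and 39.5 with loxapine, against 71.5 with DKI and 69.5 with meclizine. Q111SST stood at 68.5, close to Group B, and Q7SST at 45.4, between the groups. Cyp27a1, the mitochondrial sterol 27-hydroxylase, was at 41.8 and 40.6 in Group A and at 65.4 and 68.7 in Group B. Its Q111SST value of 75.8 was above all 4 lists. Slc39a8, a zinc and manganese importer, was at 22.0 and 24.3 against 52.6 and 52.9, and Q111SST at 46.2 lay between the groups. With a 5-kb window a strong peak entered in all 4 lists, at 96.3 and 99.2 against 99.7 and 99.5, and its separation of 28.2 points fell to 0.236.

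Flvcr2, a membrane transporter of the FLVCR family, was at 22.0 and 10.4 in Group A and at 50.8 and 72.9 in Group B. Ido2, a tryptophan-degrading dioxygenase, separated by 29.7 points, from 14.4 and 3.40 in Group A, and by 9.07 with a 5-kb window. Tmtc2, an O-mannosyltransferase, was at 14.4 and 25.9 against 70.4 and 51.6. Filip1, which encodes a filamin-binding protein, was at 32.0 and 50.3 against 73.2 and 72.6. Spocd1 separated by 36.0 points, Shcbp1l by 20.3 and Qpct, a glutaminyl cyclase, by 19.5. All of these stayed separated on the shared rank, Qpct by 2.04 points and Filip1 by 23.6.

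Kdm6a, the X-linked H3K27 demethylase, had the widest separation of all, 57.4 points, with 5.78 and 24.3 in Group A and 81.8 with DKI and 81.9 with meclizine. This value followed from the window edge. The strong DKI peak lay 986 bp from the start, just inside 1 kb, and with a 5-kb window all 4 lists reached a strong peak and the groups were no longer separated (-5.04 points).

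**Figure D2:**
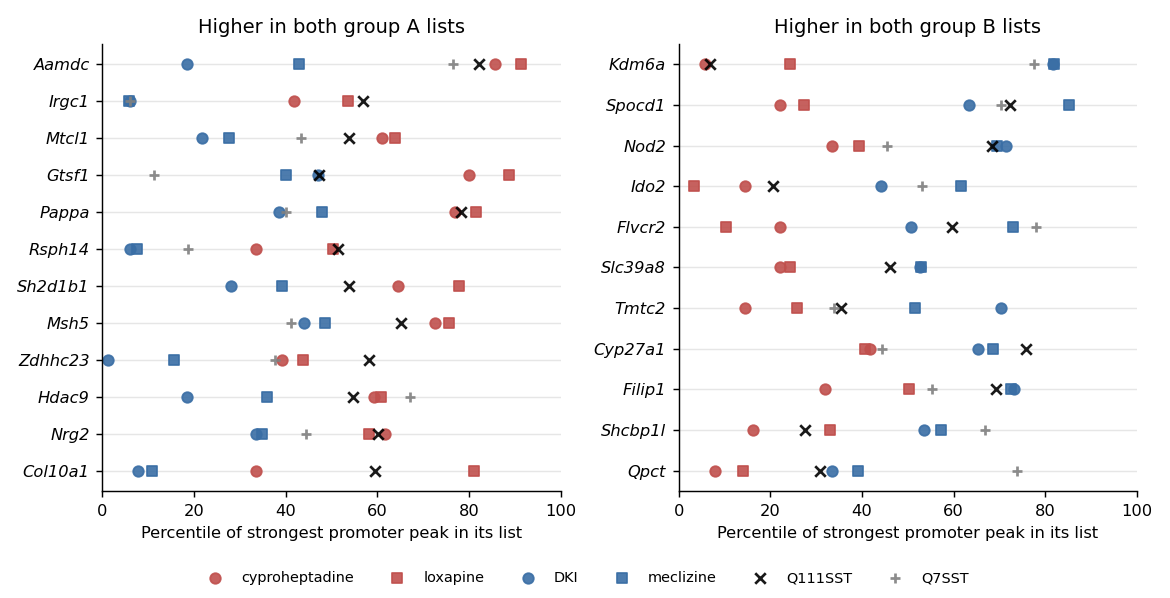
Percentile of the strongest promoter peak in each list (x axis, 0 to 100) for the named promoters with the widest separation toward Group A (left) and Group B (right). Circles are cyproheptadine and DKI, squares loxapine and meclizine, with Group A in red and Group B in blue. Crosses mark Q111SST and plus signs Q7SST. Red and blue points do not overlap in any row, as the choice of the rows requires, while Q111SST falls at either group, between them or outside both, as at Zdhhc23 (58.3) and Cyp27a1 (75.8).

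Regions over 1 kb from any annotated start were called distal. Of the 391 regions separated by 20 points or more toward Group A 340 were distal, as were 48 of 67 toward Group B, against 48.5% of all 25468 regions. Among all regions higher on both scales the distal share was 52.2% toward Group A and 43.4% toward Group B. Distal regions also lay lower in the lists, at a median mean percentile of 48.4 against 76.8 near a start. A region in an intron of Grik4, a kainate receptor subunit gene, at chr9:42730378-42731331 stood at 73.2 with cyproheptadine and 80.8 with loxapine, against 11.4 with DKI and 18.7 with meclizine. Q111SST had 35.4, between the groups, and Q7SST had no peak. An intronic region of Lims1, a focal adhesion gene, was at 59.3 and 76.0 against 11.4 and 4.42. Separations of 48.2, 46.4 and 46.0 points were found 1805 bp from Krtap3-2, 1558 bp from Tm4sf19 and 3529 bp from Treml1.

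Toward Group B, a region 3686 bp from the nearest start of Foxd3, a neural crest transcription factor gene, at chr4:99659985-99661114 stood at 66.1 and 63.6 in the DKI and meclizine lists, against 12.3 and 22.7 in Group A. An intronic region of Wif1, a secreted Wnt inhibitor, was at 68.0 and 68.3 against 27.4 and 22.7. In Q111SST the Foxd3 region was at 44.1 and the Wif1 region at 52.3, both between the groups. Regions 85036 bp from Nt5e, 32456 bp from Pigm and 19278 bp from Trim71 separated by 41.1, 37.9 and 34.7 points. On the shared rank all 10 named distal regions stayed separated, by 24.3 points or more.

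Peaks in both lists of one group and neither of the other were rare at promoters, 18 (0.138%) for Group A and 35 (0.267%) for Group B. The promoters in exactly 2 lists of different groups numbered 309 for meclizine with loxapine, 19 for meclizine with cyproheptadine, 14 for DKI with loxapine and 2 for DKI with cyproheptadine, so the counts of both groups lay within the range of the mixed pairs. When each list was limited to its strongest 30758 peaks, the promoter counts were 17 for Group A and 123 for Group B, and when a peak had to cover the start they were 19 and 225. With a 5-kb window the order turned, to 55 for Group A and 41 for Group B. Among merged regions 1357 (2.64%) were found with the Group A compounds only and 369 (0.718%) with the Group B compounds only. Group A includes the longest list. Of regions in exactly 2 lists, 4462 were in loxapine and meclizine, the longer list of each group, and 395, 143 and 130 were in the other mixed pairs. With lists of that equal size, the region counts were 971 for Group A and 1104 for Group B. These peaks were weak. The median lower percentile of the pair was 12.3 for Group A and 13.2 for Group B regions.

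The promoters marked by the Group A compounds only included Rhof, a small GTPase gene of filopodia, at 62.4 and 63.3, and Foxc2, a forkhead factor of vessel and mesenchyme development, at 53.4 and 38.3. For Rhof the nearest DKI peak lay 2735 bp and the nearest meclizine peak 3215 bp from a start, and neither vehicle list marked it. Ccr1, a chemokine receptor, was at 20.2 and 25.9 and Rfx6, an endocrine lineage factor, at 14.4 and 17.7. The Rfx6 peaks of both lists did not overlap and lay near different starts, 998 bp from one for cyproheptadine and 756 bp from another for loxapine, so these lists did not mark the same site there. The peaks of the pair did not overlap at Rxfp3 either, nor at Fmnl2 in Group B. At both Ccr1 and Rfx6 the nearest Group B peak was 31410 bp or more from a start and neither vehicle list marked the promoter. Rxfp3 (22.0 and 27.4) and Pcdh12 (40.6 and 74.4) had a meclizine peak 1115 and 1104 bp away, just outside the window, and Rnf151 (56.9 and 52.8) had both Group B peaks 1035 and 1067 bp away. The Group B lists had peaks 2097 and 2059 bp from a start of Foxc2, which both vehicle lists marked, and 2266 and 2199 bp from Iqcn (36.5 and 50.3), so that with a 5-kb window all 4 lists marked both. AU018091 was at 10.1 and 22.7.

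The promoters marked by the Group B compounds only included Tmem232, at 46.1 with DKI and 51.6 with meclizine, Gpc2, a glypican of developing neurons, at 30.9 and 43.8, and Lama4, a laminin of vessel basement membranes, at 26.6 and 39.1. All 3 were marked in Q111SST, at 14.9, 35.4 and 22.4, and the nearest Group A peaks were 8293 bp or more from a start. Tpm3-rs7 was at 33.5 and 56.1, Sh3bgr at 25 and 27.6, Ccdc180 at 23.4 and 53.5 and Fam43b at 43.0 and 21.8. Tspan32, a tetraspanin of blood cells, was at 25 and 34.8, Fmnl2, an actin-assembling formin, at 25 and 68.3 and Irf2bp2, a transcriptional corepressor, at 43.0 and 24.9. Fmnl2, Irf2bp2 and Tspan32 had a Group A peak between 1060 and 1908 bp from a start, so their absence there depended on the window.

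Distal regions found in Group A only included a 528-bp region in an intron of Syk, a tyrosine kinase gene, at 64.5 and 55.9, absent from both vehicle lists. A 537-bp region at 56.0 and 60.8 overlapped an annotated exon where the genes Grap2 and Gm49553 lie. Others lay near Medag (4553 bp), in an intron of Polm, a DNA polymerase gene, and 196413 bp from Dcn, the decorin gene. Those found in Group B only lay 15854 bp from Gcnt2 (62.0 with DKI and 73.3 with meclizine) and 107504 bp from N6amt1 (76.8 and 57.3). One lay 6509 bp from Dhx37 (65.4 and 57.3) and one in an intron of Ccdc192 (50.8 and 52.9). The last overlapped an annotated exon where the genes Smtn and Gm11946 lie (62.0 and 57.8).

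The vehicle lists, which the choice of members did not use, showed where the mutant line stood without compound. Among the 1940 promoters higher in Group A on both scales, Q111SST ranked with the Group A lists at 31.1%, between the groups at 27.7% and with the Group B lists at 41.1%. Among 1106 promoters higher in Group B, it ranked with Group B at 29.2%, between at 34.9% and with Group A at 35.9%. Thus in neither direction did most separated promoters have a vehicle value next to the same group. Among regions higher in Group A, Q111SST ranked with Group A at 29.4% and with Group B at 41.7%. Among those higher in Group B it ranked with Group B at 32.8% and with Group A at 32.1%, so the order seen at promoters was not found there. For peaks found in one group only the balance differed. Q111SST marked 28 of the 35 Group B promoters (80.0%) and 6 of the 18 Group A promoters (33.3%), and 56.9% of Group B and 45.3% of Group A regions.

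**Figure D3:**
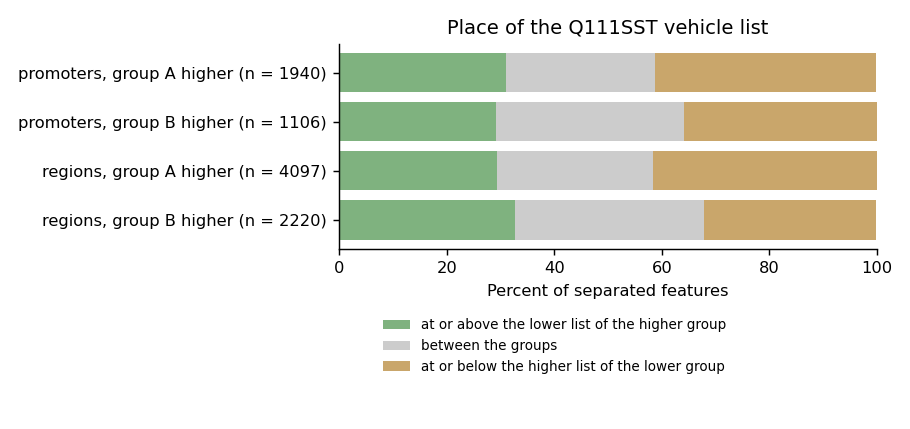
Place of the Q111SST vehicle list among promoters and regions higher in one group on both scales, as a percent of those ranked in all 5 lists (x axis). Green is at the level of the higher group, grey between the groups and brown at the level of the lower group. Green and brown each span more places in the order of 5 lists than grey, so the parts are not alike. No part exceeds the 41.7% at brown for regions higher in Group A.

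Gene lists were taken for cellular pathways and for the known targets of the compounds. Each was read against the shares over all promoters, 22.9% and 10.3% by percentile and 19.8% and 20.8% by shared rank. Only Dusp5, Pkm, Eif2ak3 and Dgkh had a separation of 10 points or more, and all other list members with values given below were named after their values were seen. Sterol genes make cholesterol and control its uptake and synthesis. Of 29 sterol promoters in all 4 lists, 8 (27.6%) were higher in Group B and 7 (24.1%) in Group A by percentile, and 13 (44.8%) and 5 (17.2%) by shared rank. The median difference, Group A minus Group B, was -10.4 points of shared rank against -0.302 over all promoters, -4.27 against -0.368 with lists of equal size and -2.11 against 1.67 by percentile. Fdps, which encodes farnesyl diphosphate synthase, stood at 97.6 and 97.8 in Group B against 87.8 and 87.3 in Group A. Insig1, the sterol-responsive retention factor of SREBP processing, was at 74.3 and 79.5 against 67.8 and 68.0.

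Not all sterol genes were on that side. The synthesis enzymes Msmo1, Mvd, Idi1, Acat2 and Lss were also higher in Group B by percentile, while the synthesis enzymes Cyp51, Hmgcs1 and Fdft1 were higher in Group A. Cyp51, lanosterol demethylase, was at 97.5 and 95.9 in Group A against 79.2 and 90.9, and Hmgcs1 and Fdft1 separated by 2.21 and 1.60 points. The regulators Srebf1, Srebf2 and Scap and the oxysterol receptor gene Nr1h2 were higher in Group A as well, by 0.0200 to 3.41 points. In Q111SST, Fdps was at 87.3, the level of the Group A lists, while Insig1 at 82.3 was above all 4 lists.

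The glycolysis list also held genes of glucose and lactate transport, lactate dehydrogenase and the use of pyruvate. Of its 25 promoters in all 4 lists, 5 (20.0%) were higher in Group B and 4 (16.0%) in Group A by percentile. By shared rank these were 10 (40.0%) and 4 (16.0%). The median difference, Group A minus Group B, was -6.91 points of shared rank and -2.13 by percentile. Slc2a3, a neuronal glucose transporter gene, was at 50.8 and 53.5 against 35.0 and 42.7, and Eno1, an enolase gene, at 78.2 and 74.1 against 63.1 and 69.0. Pkm, pyruvate kinase, went the other way and was one of 4 list members with a separation of 10 points or more, at 69.7 with cyproheptadine and 81.1 with loxapine against 48.9 with DKI and 54.9 with meclizine.

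Autophagy genes form and load the vesicles that carry cytoplasm to the lysosome. Of 30 such promoters, 10 (33.3%) were higher in Group A and 2 (6.67%) in Group B by percentile, and 11 (36.7%) and 5 (16.7%) by shared rank, with a median of 3.64 points of shared rank, 2.05 with lists of equal size and 3.86 by percentile. Ulk2, a kinase that starts autophagy, was at 97.8 and 98.5 against 82.2 with DKI and 90.5 with meclizine. Wipi1, a phosphoinositide-binding protein of the phagophore, was at 76.5 and 82.4 against 55.9 and 69.5. The cargo receptor genes Sqstm1 and Optn were higher in Group A by 2.00 and 3.55 points, and that of Nbr1 was higher in Group B by 5.90. Atg13 was also higher in Group B, at 93.9 and 91.8 against 84.3 and 88.0. In Q111SST Ulk2 was at 98.7 and Wipi1 at 81.6, at the level of Group A.

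Of 32 stress response promoters, 8 (25%) were higher in Group A and 2 (6.25%) in Group B on either scale. Eif2ak3, which encodes the ER stress kinase PERK, was at 98.3 and 93.9 against 80.5 and 79.5, and Q111SST at 98.9 was at the Group A level. Dnajc3, a chaperone that binds eIF2 kinases, was at 88.9 and 96.6 against 75.8 and 81.9. In the ERK cascade list 9 of 28 (32.1%) were higher in Group A and 2 (7.14%) in Group B by percentile, and 6 (21.4%) in each by shared rank. Dusp5, a nuclear phosphatase of ERK, had the widest separation of any list member, 19.9 points, at 67.8 and 76.4 against 39.7 and 47.8, with Q111SST at 55.5 between the groups.

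Of the genes of diacylglycerol and protein kinase C signalling, which include the diacylglycerol kinases that DKI blocks, 21 of 31 were marked in all 4 lists. By percentile 7 (33.3%) were higher in Group A and 2 (9.52%) in Group B, and by shared rank 6 (28.6%) and 4 (19%). Dgkh, a diacylglycerol kinase gene, was at 65.2 and 67.4 against 34.8 with DKI and 54.9 with meclizine, and Prkca, protein kinase C alpha, at 74.9 and 87.3 against 64.1 and 67.5. The amine receptor list, the targets of the antihistamines and of loxapine, was mostly unmarked. Only Hrh1, Adra1b and Adra2a of 32 genes had a promoter peak in all 4 lists, and 0 of these were separated. Hrh1, the H1 histamine receptor gene, was at 93.4 and 87.3 in the cyproheptadine and loxapine lists and at 91.6 and 81.2 in those of DKI and meclizine.

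Immediate early genes encode transcription factors and regulators induced early by stimuli. Of 24 such promoters, 5 (20.8%) were higher in Group B and 4 (16.7%) in Group A by percentile, and 7 (29.2%) and 2 (8.33%) by shared rank. Their median difference was 2.26 points by percentile and -1.30 by shared rank. Egr1, a zinc finger factor of this class, was at 88.2 and 74.1 in Group B against 70.3 and 69.0 in Group A.

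Electron transport genes were higher in Group A at 9 of 40 (22.5%) on either scale and in Group B at 2 (5.00%) by percentile and 6 (15.0%) by shared rank. Atp5c1, a subunit of ATP synthase, was at 88.5 and 93.4 against 76.3 and 80.6, while Ndufs1, a subunit of complex I, was at 55.1 and 59.5 against 67.4 and 72.6. Lysosome genes were higher in Group A at 11 of 30 (36.7%) by percentile and at 6 (20.0%) by shared rank, with 2 (6.67%) and 7 (23.3%) in Group B. Caspase and Bcl2 family genes were higher in Group B at 5 of 27 (18.5%) and 8 (29.6%), and in Group A at 7 (25.9%) and 3 (11.1%). Ribosomal protein genes were higher in Group A at 12 of 40 (30.0%) and 6 (15.0%), and in Group B at 6 (15.0%) and 8 (20.0%).

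**Figure D4:**
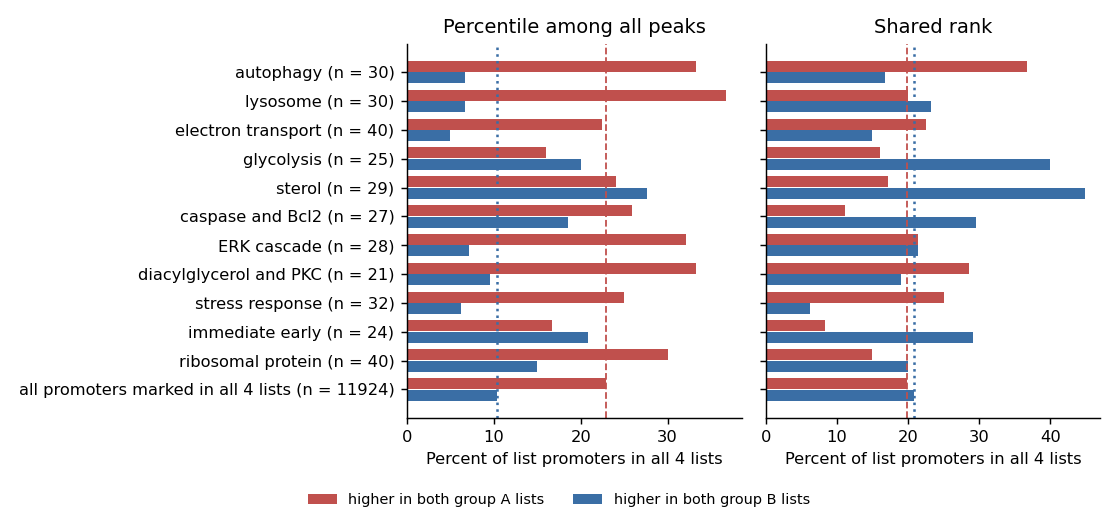
Percent of each gene list's promoters in all 4 lists that were higher in both Group A lists (red) or both Group B lists (blue), by percentile among all peaks (left) and by shared rank (right), with the shares over all promoters as dashed red and dotted blue lines. Sterol (44.8%) and glycolysis (40.0%) genes stood furthest above the Group B line by shared rank, and autophagy genes (36.7%) above the Group A line.

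Base composition was not used to choose the regions. Distal regions in all 4 lists had a median G+C content of 43.2%. Those higher in Group A on both scales had 41.5% and those higher in Group B 46.2%. Distal regions found in Group A only had 40.3% and those in Group B only 44.6%. The ratio of observed to expected CpG was 0.172 and 0.315 at distal regions higher in Group A and in Group B, against 0.215 in all. Regions near a start had 51.7% G+C toward Group A and 51.0% toward Group B, and here the CpG ratio was higher toward Group A, 0.644 against 0.552. Regions near a start in one group only had the widest gap, 42.1% G+C for the 79 of Group A and 53.6% for the 89 of Group B.

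Across 25468 regions the Spearman correlation between G+C content and the difference in shared rank, Group A minus Group B, was -0.148, and it was -0.218 over 12341 distal regions and -0.0404 over 13127 regions near a start. With the CpG ratio it was -0.299 over distal regions and 0.121 over regions near a start, so the sign differed between them. These regions share the same 4 libraries and are not independent. The relation was not even within the groups. Against Q111SST, over 25207 regions, the correlation of G+C with the change in shared rank was -0.295 for loxapine and -0.110 for cyproheptadine in Group A, and -0.117 for DKI and -0.0624 for meclizine in Group B. Loxapine thus stood apart, and cyproheptadine was close to DKI.

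**Figure D5:**
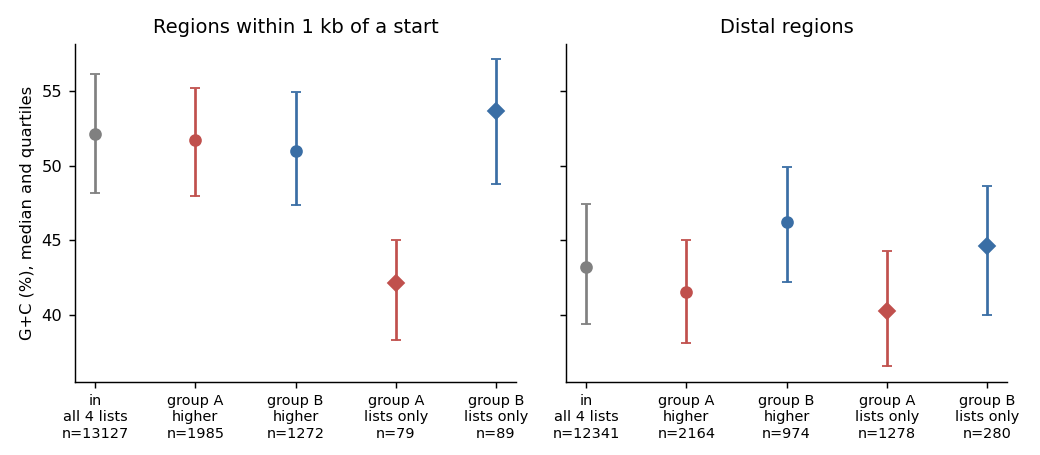
Median G+C content in percent (points) with the lower and upper quartiles (bars) of regions near a start (left) and distal regions (right), for regions in all 4 lists (grey), higher in one group on both scales (circles) and found in one group only (diamonds), with Group A in red and Group B in blue. At distal regions both Group A sets lay below both Group B sets, 41.5% and 40.3% against 46.2% and 44.6%.

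Motifs were searched on both strands in 1 RefSeq promoter per gene, 250 bases before to 50 after the start, for the 1529 of 1940 Group A promoters and 879 of 1107 Group B promoters with a sequence. The GC box GGGCGG was found in 72.2% and 62.2%, against 66.8% of 9369 promoters in all 4 lists and 35.9% of all 27025 RefSeq promoters. The CCAAT box CCAAT was found in 36.2% and 43.1%, against 39.8% and 37.9%. The E-box CACGTG was found in 11.5% and 9.33% against 10.4% and 7.24%, TATAAA in 7.00% and 5.69% against 6.63% and 14.2%, and TGANTCA of AP-1 in 4.38% and 5.23% against 4.64% and 7.93%. The cAMP response, ETS, NRF1 and sterol regulatory elements were found in 3.34%, 8.63%, 2.81% and 0.654% of Group A promoters and in 4.89%, 10.8%, 1.59% and 1.14% of Group B promoters, against 3.44%, 9.04%, 2.25% and 0.982% of those in all 4 lists. The median G+C content of these promoters was 64.0% toward Group A and 58.3% toward Group B, and their CpG ratio 0.840 and 0.744, the opposite direction to distal regions. Among 23 sterol promoters with a sequence, 18 (78.3%) held CCAAT, including that of Insig1 printed above, and 1 held the sterol regulatory element. A match is a match of letters and not a bound site.

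The X chromosome stood apart from the autosomes. Of its 655 regions in all 4 lists, 83 (12.7%) were higher in Group A and 177 (27%) in Group B by shared rank, against 20.3% and 20.7% of 24792 regions on chromosomes 1 to 19. By percentile the X shares were 18.2% and 10.8%, against 24.2% and 9.64%. Ranked over regions shared with Q111SST, the median X region was at 44.2 and 42.2 in the cyproheptadine and loxapine lists, at 45.9 and 47.0 in the DKI and meclizine lists and at 48.6 in Q111SST. Thus the Group A lists lay lowest, with autosomal medians between 50.0 and 50.4. Region by region, the median change of X regions from Q111SST was -2.82 points of shared rank for cyproheptadine, -3.70 for loxapine and -1.30 for DKI, against -0.250, -0.714 and -0.544 on the autosomes, and -0.0793 against -0.508 for meclizine. Meclizine X regions therefore did not fall relative to its autosomes on this measure. Chromosomes 17 and 7 followed with a smaller shift, with 16.8% against 23.2% and 18.6% against 23.2% by shared rank.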

How the data were processed

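H3K4me3 ChIP-Seq was measured in 6 samples of STHdh cells, 1 per condition, 4 of which were compared here. The authors digested crosslinked chromatin with micrococcal nuclease and precipitated it with an antibody against the mark. Each line of the deposited lists is a peak with its position and a score, a whole number that the authors gave and that is at least 10. Its scale, the thresholds, any input and the pooling of the triplicate cultures are not given in the sources used here. The submitters' processing notes name Trimmomatic 0.36, Bowtie2, SAMtools 1.3, MACS2 and mm10. Read totals are unknown, so no interval was given. Scores were used only to rank peaks within a list, apart from the stricter threshold and one alternative that summed the scores of a feature's peaks before ranking.

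Starts came from GENCODE M21 and sequences from RefSeq (GRCm38.p6), the same build. Regions were merged from overlapping peaks on chromosomes 1 to 19, X and Y. Coordinates count from 1. The ranking was tested on simulated lists. Named were the 12 promoters and 5 distal regions with the widest separation in each direction, the 10 promoters and 5 distal regions strongest among those in one group only, list members separated by at least 10 points, and the promoters nearest the limit, on chromosomes 1 to 19 and X. Other list members were named after their values were seen. Predicted genes with provisional symbols (4) were passed over. Some genes that this rule gave are not reported here. Members and gene lists were chosen with earlier results of these data known. Alternatives covered scale, list size, threshold, window and merging. Python 3.11.15, pandas 2.3.3, numpy 2.4.6, SciPy 1.17.1 and matplotlib 3.10.9 were used.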

Additional observations from a re-analysis of the deposited data

Results flagged for a closer look

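Among 55 promoters looked at, which were the 24 named for their separation and the list members separated by at least 5 points, 12 had both Group A lists on one side of Q111SST and both Group B lists on the other, by percentile and by rank among the promoters of all 5 lists. Over all promoters higher on both scales, Q111SST lay between the groups by shared rank at 27.7% of those toward Group A. Toward Group B this share was 34.9%. This place was thus not particular to the promoters looked at. With 1 list per compound these differences were not tested. The values are the Group A mean minus the Group B mean, in percentile points. Group A lay above Q111SST and Group B below it for Aamdc (57.8), Mtcl1 (37.7), Sh2d1b1 (37.6), Hdac9 (32.8), Msh5 (27.8), Cyp51 (11.7) and Psap (11.0), the precursor gene of the saposins. Group B lay above and Group A below for Tmtc2 (-40.9), Nod2 (-34.0), Filip1 (-31.7), Slc39a8 (-29.6) and Qpct (-25.3). With a 5-kb window the value was -4.45 for Aamdc, the opposite direction, 6.43 for Msh5, which was no longer separated, and -1.82 for Slc39a8. With the strongest peak of the merged region it was also -4.45 for Aamdc.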

How the results depend on the processing

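No paired analysis was possible because 1 list stood for each condition. The balance between the groups depended on the scale. Group A's share of separated promoters was 68.9% by percentile, and 48.8% by shared rank, 44.2% by summed scores, 46.8% with lists of equal size and 48.8% above the stricter score of 46, the pooled median. Its share of separated regions was 71.3% by percentile, and 49.1%, 47.5%, 47.8% and 47.0% in the same order, and 81.9% at a separation of 10 points. Longer lists raise percentiles by construction. Group B promoters numbered 1232 by percentile, 2478 by shared rank, 2681 by summed scores and 2510 with equal lists, and Group B regions 2463, 5311, 5467 and 4865. At separations of 5 and 10 points, 768 and 228 promoters and 2950 and 1520 regions were higher in Group A, and 258 and 61 promoters and 852 and 337 regions in Group B. Above the stricter score, 1339 promoters and 1719 regions were higher in Group A. Peaks in Group B only numbered 123 promoters with equal lists, 67 above the stricter score and 225 when a peak had to cover the start, and 1104 regions with equal lists and 575 when 50% of the region had to be covered. Peaks in Group A only numbered 55 promoters with a 5-kb window, against 41 in Group B only. Above the stricter score 276 regions were in Group A only and 346 in Group B only. In both settings the order of the groups was the reverse of the main counts. Of the 24 named promoters, 24 stayed separated by shared rank, 19 with a 5-kb window and 21 with the strongest peak of the merged region, an alternative chosen after seeing the data. With equal lists 12 did, and the other 12 were not in all of those lists. The mean difference reversed to -4.45 for Aamdc, -1.42 for Pappa and 4.86 for Kdm6a with a 5-kb window and with merged regions, and to -2.41 for Rsph14 with a 5-kb window, since stronger peaks lay beyond 1 kb. Sterol genes higher in Group B were 12 of 29 (41.4%) and autophagy genes higher in Group A 10 of 30 (33.3%) with equal lists, against 21.4% and 18.8% of all promoters. Depth is unknown, and absence of a weak peak may reflect it.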
